A study of Mus musculus with 12 samples.

Results

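Ezh2 and the other core genes of Polycomb repressive complex 2 (PRC2) were followed through germinal center B cells of lupus-prone mice whose T cell help had been blocked. The members were chosen by gene symbol: Ezh2, Ezh1, Eed, Suz12, Rbbp4, Rbbp7 and Jarid2. All 7 are listed among the 12212 symbols of the files, and all 7 were among the 12081 symbols that passed the filter on low counts. The cells came from spleens of NZBWF1/J mice, a hybrid background used as a model of lupus, and were enriched for B cells by negative selection before germinal center light zone and dark zone cells were sorted. The 12 libraries, each made from 1000 cells, form 4 groups of 3: light zone treated, light zone control, dark zone treated and dark zone control. Treated mice had 6 doses of 200 ug CTLA4-IG and 6 doses of 250 ug Anti-CD40L within 2 weeks, from an age of 18 weeks. CTLA4-IG keeps CD80 and CD86 from the T cell receptor CD28, and Anti-CD40L blocks the T cell ligand of CD40. Control mice were untreated, and the labels name no control antibody or fusion protein for them and do not state their age. Nothing in the labels says whether replicate numbers mark separate mice, so p-values reflect only how these libraries vary among themselves, which may be technical.

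PRC2 places methyl groups on lysine 27 of histone H3, a mark of silenced genes. EZH2 and its paralog EZH1 are the alternative catalytic subunits, EED binds the methylated histone tail and stimulates the enzyme, and SUZ12 holds the core together. RBBP4 and RBBP7 are histone-binding WD40 proteins that also belong to other chromatin complexes, and JARID2 is a cofactor that helps bring the complex to its sites. Germinal center B cells are known for high EZH2, which holds down cell cycle inhibitors and plasma cell genes while the cells divide in the dark zone. EZH2 is also a known target of the E2F factors, which switch on genes for DNA replication.

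Because Ezh2 is a known E2F target and the results turn mainly on it, the start sites of all members were read for E2F words. RefSeq promoter windows on GRCm38.p6, which run from 250 bases before to 50 bases after a start, exist for all 7 members (8 windows, with 2 for Jarid2). The words searched on both strands were TTTGGCGC, TTTCGCGC, TTTCCCGC, TTTGCCGC, TTTGGCGG, TTTCGCGG, TTTCCCGG and TTTGCCGG. Of 32851 mouse windows of that length, 4.51% held at least 1 of these words. Among the members, 2 did, and the 30 bases around each word are shown with the word in capitals.
Ezh2: gattgggttgctgcgTTTGGCGCtcggtcc
Suz12: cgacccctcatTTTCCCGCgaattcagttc
The Ezh2 stretch lies on the minus strand at chr6:47595013-47595042, and its word spans bases 3 to 10 with the start counted as 0. The Suz12 stretch lies on the plus strand at chr11:79992876-79992905, with its word at bases -219 to -212. The letters gattgg upstream of the Ezh2 word hold a reversed CCAAT, a word found in 37.4% of all windows and in windows of 6 members. These matches describe the letters in the windows and show no binding.

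Library totals ranged from 16032746 to 26837714 counts, and levels below are CPM, counts scaled to a common library total after TMM normalization. A floor of 3 counts equals 0.112 to 0.187 CPM, and the 7 genes lay above it in every library, with the lowest at 24 counts (Ezh1 in light zone control replicate 1, Jarid2 in light zone treated replicate 3). In bulk samples fewer cells of a type and less RNA per cell cannot be told apart. Markers were set beside the sort labels. The light zone list (Cd83, Cd86, Cd40, Nfkbia, Ccnd2) summed to 1213 to 1654 CPM in light zone treated and 858 to 1224 CPM in light zone control libraries, against 479 to 626 CPM in dark zone treated and 279 to 530 CPM in dark zone control libraries. The dark zone list overlapped between the treated zones, with 900 to 1791 CPM in light zone and 1250 to 2300 CPM in dark zone treated libraries. Between the control zones it did not overlap, with 827 to 1412 CPM in light zone and 1783 to 2459 CPM in dark zone control libraries. Of the treated libraries, 3 stood apart on the first principal axis, which held 30.3% of all variance, namely light zone treated replicate 2 and dark zone treated replicates 1 and 2. They lay at 146.6 to 165.7, and the other 9 libraries at -102.9 to 20.42. In these 3 libraries 5 of 7 macrophage markers (Lyz2, C1qa, C1qb, C1qc, Csf1r) and 3 of 7 T cell markers (Cd3e, Cd4, Cd8a) lay above every other library. Of all tested genes, 13.7% lay above every other library in the same way and 16.7% lay below. The macrophage list summed to 69.4 to 171 CPM in them, against 5.80 to 43.6 CPM in the other 9, where C1qa, C1qb and C1qc did not exceed 0.36 CPM. B cell markers were high in all libraries (summed 4905 to 9015 CPM), although Pax5 was at 0.175 to 12.3 CPM. The T cell list summed to 138 to 298 CPM, against 86.9 to 225 CPM, and the plasma cell list to 1310 to 2411 CPM, against 6431 to 11540 CPM, with Jchain below all 9. S100a8 and Camp of the neutrophil list, at 0 in the other 9, and the erythroid gene Alas2 also lay above all 9, with erythroid sums of 7.503 to 10.45 CPM, against 3.90 to 5.84 CPM, and neutrophil sums of 0.853 to 36.75 CPM, against 0 to 8.02 CPM. In light zone treated replicate 2, however, S100a8 had only 3 counts and Camp 1. Its neutrophil sum of 0.853 CPM lay within the range of the other 9. The germinal center list summed to 1254 to 1768 CPM, against 1252 to 2426 CPM. Of its genes Fas (40.7 to 46.6 CPM, against 138 to 260 CPM) and Gcsam lay below all 9 and S1pr2 above, and of the B cell list Cd79a lay below and Pax5 above. Without these 3 libraries the dark zone treated group is replicate 3 alone, so in every value given without them that library is assumed to vary like the other groups. By edgeR's quasi-likelihood test 0 of 12081 genes passed an adjusted p of 0.05 in any of the 6 comparisons (0% called). Every difference below is therefore given with its values and without a call by edgeR, and calls by DESeq2 or limma-voom are named as such.

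**Figure D1:**
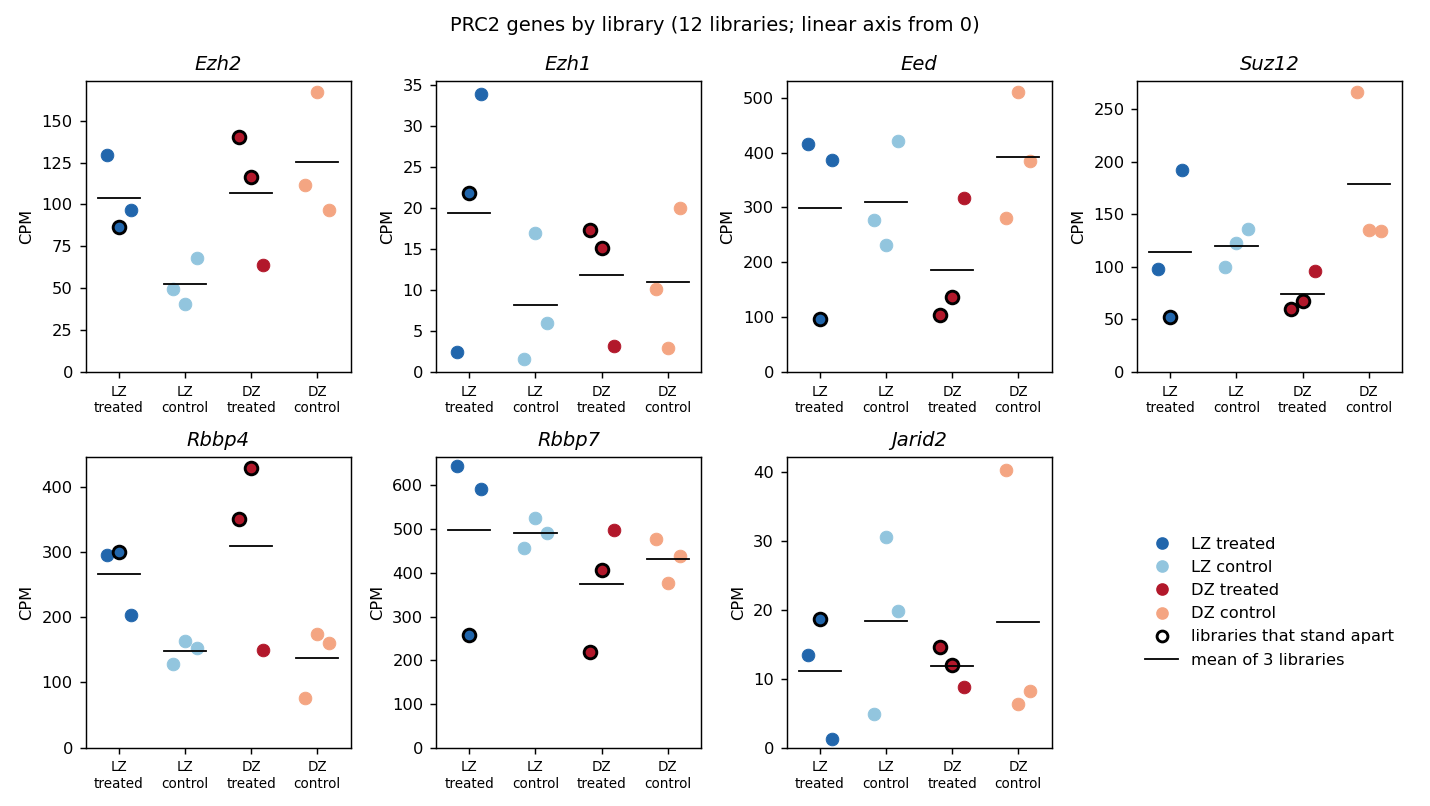
Each panel plots CPM (linear axis from 0) of 1 PRC2 gene in all 12 libraries, grouped by zone (LZ, light zone; DZ, dark zone) and treatment. Points are libraries, bars are means of 3, and black rings mark the 3 treated libraries that stood apart. Light zone control libraries lie at 40.5 to 68.3 CPM for Ezh2, a range that holds 1 other library, dark zone treated replicate 3 at 63.6 CPM.

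In GENCODE M21 on mm10, Ezh2 spans chr6:47530139-47595341 and Ezh1 chr11:101191115-101226463, both on the minus strand. Eed lies at chr7:89954654-89980983 (minus), Suz12 at chr11:79993106-80034123 (plus) and Rbbp4 at chr4:129307100-129335370 (minus). Rbbp7 lies at chrX:162760402-162779092 and Jarid2 at chr13:44729474-44921643, both on the plus strand. Levels between members can be compared only per length, and were divided by the longest coding transcript in GENCODE M21. On that scale the median over the 12 libraries was 208 CPM per kb for Rbbp7 and 145 for Eed. Rbbp4 (38.3 CPM per kb), Ezh2 (34.7) and Suz12 (25.5) formed a middle group, and Ezh1 (3.001) and Jarid2 (2.12) were lowest. Divided by all annotated exon bases instead, the 3 middle members changed places, with Suz12 at 22.5, Rbbp4 at 19.3 and Ezh2 at 14.5 CPM per kb, so no order among them is given. The steadiest member was Rbbp7, with a 2.95-fold range over the 12 libraries. Ezh2 ranged 4.14-fold, Suz12 5.07-fold, Eed 5.23-fold and Rbbp4 5.62-fold. The low members Ezh1 and Jarid2 spread most, at 21.6-fold and 32.5-fold.

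In untreated mice, light zone cells were compared with dark zone cells to describe the zone difference without drug. Ezh2, the main catalytic subunit of dividing cells, stood at 49.7, 40.5 and 68.3 CPM in light zone control libraries. It stood at 112, 167 and 96.7 CPM in dark zone control libraries. Every light zone library was below every dark zone library. The mean was 52.8 ± 14.2 CPM in the light zone and 125 ± 37.2 CPM in the dark zone (SD, n = 3 each), a log2 difference of -1.24 (SE 0.40). It did not pass edgeR's test over all genes (adjusted p = 1), nor that of DESeq2 (adjusted p = 0.152). Ezh2 was the only member of the 7 whose control zones did not overlap, where 5.6% of all tested genes lay lower without overlap and 4.47% lay higher. At an unadjusted p under 0.05 edgeR had 595 genes (4.93%), and 1 of 7 members.

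The other members gave no such separation in untreated mice. Suz12, the scaffold, had 100, 122 and 136 CPM in light zone control libraries and 266, 135.5 and 134 CPM in dark zone control libraries, a log2 difference of -0.58 (SE 0.48). The groups touched, since light zone replicate 3 lay above 2 of the 3 dark zone libraries. Eed, the reader subunit, had 276, 232 and 421 CPM in the light zone and 280, 510 and 385 CPM in the dark zone, a difference of -0.34 (SE 0.57). For Rbbp7 the levels were 457, 526 and 492 CPM in light zone and 477, 378 and 440 CPM in dark zone control libraries, a difference of 0.19 (SE 0.39). Rbbp4 differed by 0.11 (SE 0.43), with 129, 163 and 153 CPM in the light zone and 76.3, 175 and 160 CPM in the dark zone. Both histone-binding subunits therefore overlapped between zones. Ezh1, the catalytic paralog of resting cells, had 1.57, 17.0 and 5.98 CPM in the light zone and 10.1, 2.99 and 19.99 CPM in the dark zone, and Jarid2 had 4.84, 30.5 and 19.8 CPM in the light zone and 40.2, 6.33 and 8.17 CPM in the dark zone. The groups of both genes overlapped, with log2 differences of -0.43 (SE 1.15) for Ezh1 and 0.01 (SE 1.05) for Jarid2.

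Under treatment, the same comparison describes the zones while T cell help was blocked. Ezh2 had 129, 86.3 and 96.5 CPM in light zone treated libraries. It had 140, 116 and 63.6 CPM in dark zone treated libraries. The groups overlapped, and the log2 difference was -0.04 (SE 0.39, adjusted p = 1). Without the 3 libraries that stood apart, light zone treated libraries were at 129 and 96.5 CPM and the single dark zone treated library at 63.6 CPM, and the difference turned to 0.84 (SE 0.53, adjusted p = 0.903). At an unadjusted p under 0.05 edgeR had 249 genes (2.06%) and 0 of 7 members, and DESeq2 called 1 gene, which is no member. No member separated the treated zones, against 5.79% of all genes that did so in either direction (2.24% higher and 3.55% lower in the light zone). Rbbp7 differed by 0.41 (SE 0.39), with 644.5, 258 and 591 CPM in light zone treated and 219, 407 and 498 CPM in dark zone treated libraries. Eed differed by 0.69 (SE 0.58) and Suz12 by 0.62 (SE 0.48). In each of these 3 genes the lowest light zone value was that of replicate 2, which stood apart.

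Averaged over treated and control mice, Ezh2 was lower in the light zone by a log2 difference of -0.64 (SE 0.28, adjusted p = 0.991). Of the 12081 genes, 596 (4.93%) reached an unadjusted p under 0.05, and DESeq2 called 64 genes, with Ezh2 at an adjusted p of 0.54. An exact two-sided permutation of zone labels within treatment gave a mean difference of -0.61 log2 CPM and p = 0.09, or 0.18 when adjusted over the 2 permutation tests made (smallest p possible 0.005). With 1 library left out at a time, the exact permutation test of zone labels gave adjusted p of 0.03 to 0.41 over 12 runs. The lowest exact permutation p (p = 0.015, adjusted p = 0.03, difference -0.78) came without dark zone treated replicate 3. That library was the dark zone library lowest in Ezh2, so leaving it out favored a smaller p. In all remaining runs the exact permutation test gave adjusted p of 0.13 to 0.41. Without the 3 libraries that stood apart the edgeR difference shrank to -0.19 (SE 0.30) and the exact permutation p was 0.683. Over the 7 members the median pooled difference was 0.02, against 0.06 over all genes. The other members had pooled zone differences of -0.05 (Rbbp4) to 0.30 (Rbbp7, SE 0.28).

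**Figure D2:**
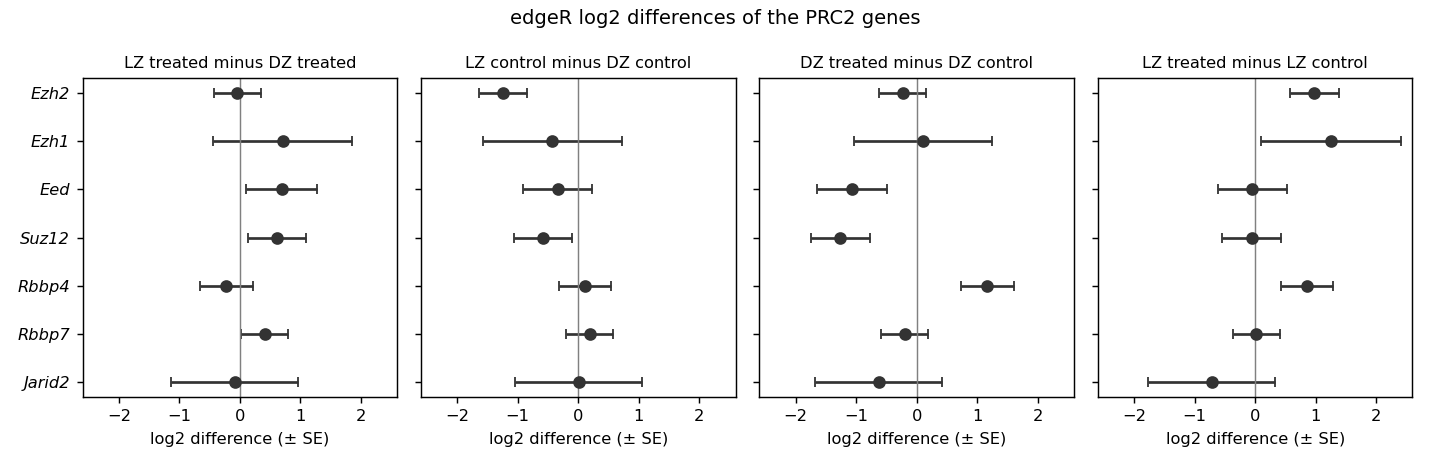
Log2 differences (points) with their standard errors (bars) from the edgeR fit for the 7 PRC2 genes, with 1 panel for each pair of groups. Ezh2 lies at -1.24 between the control zones, -0.04 between the treated zones, -0.23 for treatment in the dark zone and 0.98 for treatment in the light zone.

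Light zone cells of treated and control mice were set against each other, since the light zone is where T cell help is normally received. Ezh2 had 129, 86.3 and 96.5 CPM in treated libraries and 49.7, 40.5 and 68.3 CPM in control libraries. Every treated library was above every control library. Treated libraries averaged 104 ± 22.6 CPM, and controls 52.8 ± 14.2 CPM (SD, n = 3 each), a 1.97-fold level or a log2 difference of 0.98 (SE 0.40). The adjusted p was 0.674 with edgeR and 0.281 with DESeq2. Without the libraries that stood apart, where 129 and 96.5 CPM remained in treated cells, the difference was 1.11 (SE 0.37, adjusted p = 0.672).

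Rbbp4 was the other member whose light zone groups did not overlap. It had 295.5, 299.8 and 204 CPM in treated libraries and 129, 163 and 153 CPM in control libraries, a log2 difference of 0.85 (SE 0.43, adjusted p = 0.687). Thus 2 of 7 members were higher in treated light zone libraries without overlap, where 5.82% of all genes were, and 0 were lower, where 5.49% of all genes were. Ezh1 had 2.46, 21.8 and 33.9 CPM with treatment and 1.57, 17.0 and 5.98 CPM without, a difference of 1.25 (SE 1.16). Eed had 415, 97.5 and 387 CPM in treated libraries, against 276, 232 and 421 CPM in controls. Suz12 had 98.0, 52.5 and 192 CPM in treated libraries, against 100, 122 and 136 CPM in controls. In both genes the groups overlapped. Their differences were -0.05 (SE 0.57) and -0.06 (SE 0.48), and they turned to 0.39 (SE 0.33) and 0.29 (SE 0.42) without the libraries that stood apart. Rbbp7 differed by 0.02 (SE 0.39). Jarid2 was at 13.5, 18.7 and 1.24 CPM in treated libraries, against 4.84, 30.5 and 19.8 CPM in controls, and differed by -0.72 (SE 1.05). At an unadjusted p under 0.05 edgeR had 889 genes (7.36%) and 1 of 7 members in this comparison, and DESeq2 called 216 genes, none of them a member.

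The dark zone was compared in the same way. Ezh2 had 140, 116 and 63.6 CPM in treated libraries and 112, 167 and 96.7 CPM in control libraries, which overlapped. The log2 difference was -0.23 (SE 0.39, adjusted p = 0.825), and -0.96 (SE 0.51, adjusted p = 1) when replicate 3 was the only dark zone treated library kept. Over both zones, an exact two-sided permutation of treatment labels within zone gave a mean difference of 0.36 log2 CPM (p = 0.285, adjusted p = 0.285). The difference between the treatment effects of the zones, light minus dark, was 1.21 (SE 0.56) for Ezh2, with an adjusted p of 1. It was 2.07 (SE 0.65, adjusted p = 1) without the libraries that stood apart. The interaction had 275 genes (2.28%) at an unadjusted p under 0.05 and 0 of 7 members, and DESeq2 called 16 genes, none of them a member.

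Suz12, Eed and Rbbp4 had the larger dark zone differences. Suz12 had 60.1, 67.6 and 95.9 CPM in treated libraries, against 266, 135.5 and 134 CPM in controls, a log2 difference of -1.26 (SE 0.48, adjusted p = 0.528). Its groups did not overlap, as in 11.2% of all genes that were lower in treated dark zone libraries. Eed had 104, 137 and 318 CPM in treated libraries, against 280, 510 and 385 CPM in controls, a difference of -1.07 (SE 0.58, adjusted p = 0.529). Replicate 3 lay inside the control range. Rbbp4 ran the other way, with 350, 428 and 150 CPM in treated libraries, against 76.3, 175 and 160 CPM in controls, a difference of 1.17 (SE 0.44, adjusted p = 0.528). Here too replicate 3 lay inside the control range. At an unadjusted p under 0.05 edgeR had 1075 genes (8.9%) and 2 of 7 members. DESeq2 called 72 genes and none of the members. Limma-voom with sample weights called 3073 of the 12081 genes tested, a large share of all genes. Among them were Eed at -1.60 (adjusted p = 0.00675), Suz12 at -1.34 (adjusted p = 0.00912) and Rbbp4 at 1.53 (adjusted p = 0.00602).

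All 3 genes separated the libraries that stood apart from the rest. Eed was at 97.5 to 137 CPM in the 3 libraries and 232 to 510 CPM in the other 9. Suz12 was at 52.5 to 67.6 CPM against 95.9 to 266 CPM. Rbbp4 was at 299.8 to 428 CPM against 76.3 to 295.5 CPM. The 3 libraries lay below the other 9 in 16.7% of all tested genes and above them in 13.7%. Without the 3 libraries the dark zone treatment difference was -0.29 (SE 0.43) for Eed, -0.88 (SE 0.57) for Suz12 and 0.15 (SE 0.48) for Rbbp4. Of the markers, 5 of 7 macrophage genes, 3 of 7 T cell genes and the erythroid gene Alas2 lay above the other 9 in the same libraries. Cd79a, Fas and Gcsam lay below. The neutrophil genes S100a8 and Camp were at 2.32 to 14.8 CPM in dark zone treated replicates 1 and 2. In light zone treated replicate 2 they did not exceed 0.0776 CPM. The part of these markers in the values was not tested. Ezh2 was at 86.3 to 140 CPM in the 3 libraries, within the 40.5 to 167 CPM of the other 9.

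The balance between paralogs differed from library to library. The ratio of Rbbp4 to Rbbp7, both in CPM, was 1.05 to 1.601 in the 3 libraries that stood apart and 0.160 to 0.462 in the other 9. That of Ezh2 to Ezh1 ran from 2.38 to 56.0 over all libraries. It was 52.7, 3.95 and 2.85 in light zone treated, 31.7, 2.38 and 11.4 in light zone control, 8.09, 7.70 and 20.1 in dark zone treated and 11, 56.0 and 4.84 in dark zone control libraries. No group held this ratio apart from the others. Reads of Rbbp4 and of some other genes cannot be told apart everywhere, since 33.8% of the 50-base words of its longest coding transcript also occur in transcripts of Gm26722, Sync and 2 other genes. For Rbbp7 the share was 15.1% (Gm6382 and Txlng), for Eed 10.5%, for Suz12 3.03% and for Ezh2 1.61%. Of the protein-coding partners Sync and Txlng, only Txlng is listed in the files, at 1.78 to 23.5 CPM. No levels are given for the other partners.

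**Figure D3:**
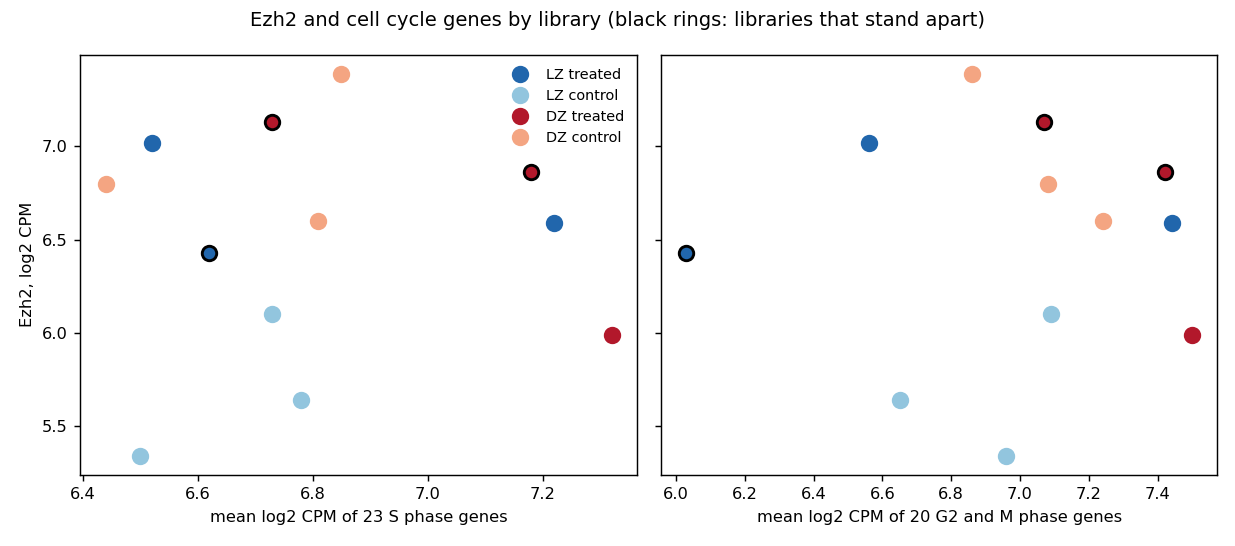
Ezh2 (log2 CPM, vertical axis) against the mean log2 CPM of 23 S phase genes (left) and of 20 G2 and M phase genes (right), with 1 point for each of the 12 libraries. Light zone control libraries lie low on the Ezh2 axis (5.34 to 6.10) at S phase values (6.50 to 6.78) inside the range of dark zone control libraries (6.44 to 6.85). Their G2 and M phase values are 6.65 to 7.09, against 6.86 to 7.24 in dark zone control libraries.

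Cell cycle genes were set beside Ezh2, since its gene is known to be switched on in dividing cells. The mean of 23 S phase genes was 6.52, 6.62 and 7.22 log2 CPM in light zone treated and 6.78, 6.50 and 6.73 in light zone control libraries. It was 6.73, 7.18 and 7.32 in dark zone treated and 6.44, 6.85 and 6.81 in dark zone control libraries. Ezh2 minus this mean was -1.14, -1.16 and -0.63 log2 units in light zone control libraries and 0.36, 0.54 and -0.22 in dark zone control libraries. These values did not overlap between the control zones, and the share of all genes for which that holds was not computed. In light zone treated libraries the same value was 0.50, -0.19 and -0.62, so the lowest treated value lay next to the highest control value. Ezh2 minus the mean of 20 G2 and M phase genes was -1.01, -1.62 and -0.99 in light zone control libraries. It was -0.28, 0.53 and -0.65 in dark zone control libraries. The part of the cell cycle in the Ezh2 values was not tested.
In the untreated mice 14 of 23 S phase genes were higher in the light zone (median log2 difference 0.03, against 0.00 over all genes), and in light zone treatment 16 of 23 were higher (median 0.10, equal to that of all genes). None of the 23 passed adjustment in either direction in any comparison, with edgeR or with DESeq2. The helicase genes Mcm3, Mcm6 and Mcm7 had pooled zone differences of -0.92 (SE 0.47), -0.71 (SE 0.51) and -0.65 (SE 0.53), and Pola1, a subunit of DNA polymerase alpha, -0.53 (SE 0.43). Of 20 G2 and M phase genes, 17 were lower in the light zone in the pooled comparison (median -0.37, against 0.06 over all genes) and 0 passed with either tool. Aurka, a mitotic kinase, differed by -1.01 (SE 0.56), Hmmr, a spindle gene, by -0.86 (SE 0.32), and Cenpf, a kinetochore gene, by -0.69 (SE 0.35), while Bub1, a spindle checkpoint kinase, differed by 0.95 (SE 0.44). Mki67, the proliferation antigen, differed by -0.28 (SE 0.30).

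E2F and RB family genes, which control that program, gave no call among 13 genes with edgeR or DESeq2. In untreated mice the light zone was higher for 5 and lower for 8 of them. E2f1, an activating E2F, was at 20.8, 64.2 and 24.6 CPM in light zone treated and 22.1, 5.74 and 3.71 CPM in light zone control libraries. In the dark zone it was at 61.9, 58.0 and 1.84 CPM in treated libraries, against 14.1, 13.7 and 5.83 CPM in controls. E2f2 was at 56.8 to 70.1 CPM in the 3 libraries that stood apart and 6.02 to 31.7 CPM in the other 9. Such a separation upward was found in 13.7% of all tested genes. Of the other genes in this list, Rbl2 had a pooled zone difference of -1.18 (SE 1), E2f7 -1.39 (SE 1.49), E2f5 0.98 (SE 0.42) and E2f3 0.77 (SE 0.62).

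PRC2 accessory genes, which steer the core complex to chromatin, were divided. Of 9 tested, 4 stood higher and 5 lower between the untreated zones (median -0.13), and treatment in the light zone gave the same split (median -0.56), and 0 passed in any comparison with edgeR or DESeq2. Mtf2, a Polycomb-like DNA-binding subunit, had 215, 112 and 224 CPM in light zone treated and 464, 254 and 196 CPM in light zone control libraries. It had 304, 188 and 268 CPM in dark zone treated and 468, 427 and 428 CPM in dark zone control libraries. The dark zone groups did not overlap, as in 11.2% of all tested genes that were lower in treated dark zone libraries. The log2 difference was -0.80 (SE 0.39). Phf19, another Polycomb-like subunit, had a pooled zone difference of -1.25 (SE 0.72) and Lcorl 1.30 (SE 1.11). Eloc, an elongin subunit shared with other complexes, was at 49.8 to 61.4 CPM in the 3 libraries that stood apart and 301 to 474 CPM in the other 9. Such a separation downward was found in 16.7% of all tested genes.

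PRC1, which ubiquitinates histone H2A at Polycomb sites, had 12 of 22 genes higher and 10 lower between the untreated zones (median 0.24), and 0 passed with edgeR in any comparison. DESeq2 called 1 of them, Ring1, for treatment in the light zone. Bmi1, a RING finger partner of the ligase, was at 5.32, 14.6 and 15.4 CPM in light zone treated libraries. It was at 130, 77.1 and 5.65 CPM in light zone control libraries, so a single control library lay inside the treated range (log2 difference -2.59, SE 0.92). The pooled zone differences of Rnf2, the ligase itself, and Phc2, a polyhomeotic subunit, were 0.52 (SE 0.67) and -0.31 (SE 0.64).
The opposing enzymes gave no call with edgeR. Of 9 demethylase and deubiquitinase genes, 6 were higher in the light zone of untreated mice (median 0.61) and 5 with treatment in the light zone (median 0.05). With treatment in the dark zone 8 of 9 were higher (median 1.01, against 0.06 over all genes), where 52.2% of all tested genes were. Replicates 1 and 2 of that treated group stood apart. In its replicate 3, Bap1 (8.45 CPM) and Kdm6a (78.8 CPM) lay inside the range of dark zone controls. Asxl2 (17.9 CPM) and Kdm6b (1.52 CPM) lay below that range, and Asxl1 (49.7 CPM) and Foxk2 (36.5 CPM) above it. Asxl1, a cofactor of the deubiquitinase, had 69.55, 48.1 and 49.7 CPM in dark zone treated libraries and 11.8, 4.40 and 18.6 CPM in dark zone control libraries. These groups did not overlap, as in 12.5% of all tested genes that were higher in treated dark zone libraries. The log2 difference was 2.26 (SE 0.65), which DESeq2 called (adjusted p = 0.0485) and edgeR did not (adjusted p = 0.528). Kdm6a, the H3K27 demethylase, was at 25.1, 39.7 and 50.2 CPM in light zone treated and 128, 75.9 and 37.3 CPM in light zone control libraries (log2 difference -1.07, SE 0.57). Kdm6b, its inducible paralog, was at 1.52 to 15.5 CPM over all libraries. In that list, Asxl2 had a pooled zone difference of 0.52 (SE 0.47), Asxl1 0.43 (SE 0.44), Bap1, the H2A deubiquitinase, -1.27 (SE 0.79) and Foxk2 -1.61 (SE 0.75).
Among 15 COMPASS and trithorax genes, which place the activating H3K4 mark, 5 were higher and 10 lower in the pooled comparison (median -0.11). Kmt2a, a methyltransferase, differed by -0.76 (SE 0.34), Rbbp5 by -0.88 (SE 0.94), Ash1l by -0.36 (SE 0.45) and Dpy30 by 0.47 (SE 0.58). In the other complexes that use Rbbp4 and Rbbp7, 9 of 23 genes were higher in the pooled comparison (median -0.07). With edgeR 0 passed in any comparison, and DESeq2 called 1, Gatad2a, for treatment in the light zone. Ring1 and Gatad2a are named here because of these calls, after their values were seen. Bptf, a chromatin remodeler subunit, had a pooled zone difference of -0.86 (SE 0.31) and Chaf1a, a histone chaperone subunit, of -1.20 (SE 0.65). Lin9 and Lin52, of the MuvB core, differed by 1.46 (SE 0.72) and -2.08 (SE 1.17).

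Genes that restrain the cell cycle or mark exit from the germinal center, some of them known to be held down by EZH2, were described last. In the light zone controls 8 of 11 such genes were higher and 3 lower than in the dark zone controls, with a median of 1.23 against 0.00 over all genes. With treatment in the dark zone 10 of 11 were higher and 1 lower than in the same dark zone controls, with a median of 1.11 against 0.06. Of these, 3 were higher without overlap. Of all tested genes, 52.2% were higher in that comparison and 12.5% were higher without overlap. Dark zone treated replicates 1 and 2 stood apart, and no list median without them was computed. In replicate 3, Irf4 (0.200 CPM), Cd38 (17.7 CPM) and Gpr183 (20.2 CPM) lay inside the range of dark zone controls. Cdkn1a (8.89 CPM) and Cd69 (55.8 CPM) lay above it. The part of EZH2 in these differences was not tested. Both list medians are the same when Cdkn1a, whose entry was blank in dark zone controls, is set at its bound. With edgeR 0 passed in any comparison, and DESeq2 called 1, Cdkn1a, in both of these comparisons (adjusted p = 0.0023 between control zones and 0.00146 for treatment in the dark zone). Irf4, a plasma cell and activation factor, had 54.7, 39.3 and 17.7 CPM in light zone control libraries and 0.274, 0 and 4.30 CPM in dark zone control libraries. Cd38, a surface enzyme low on mouse germinal center cells, had 85.5, 40.9 and 114 CPM in light zone control libraries, against 2.61, 9.92 and 29.5 CPM in dark zone control libraries (log2 difference 2.52, SE 0.88). For both genes every light zone control library was above every dark zone control library, as in 4.47% of all tested genes. Under treatment Irf4 had 0.351, 26.4 and 0.207 CPM in the light zone and 6.73, 7.93 and 0.200 CPM in the dark zone, which overlapped. In treated against control light zone libraries Irf4 differed by -2.05 (SE 2.01) and Cd38 by -0.88 (SE 0.84). Cdkn1a, the inhibitor p21, had 0.117, 10.99 and 23.95 CPM in light zone treated and 0, 15.7 and 8.20 CPM in light zone control libraries. It had 15.2, 13.8 and 8.89 CPM in dark zone treated libraries, and its entry was blank, read as 0, in the 3 dark zone control libraries. The DESeq2 calls of Cdkn1a rest on these blank entries. Cdkn1b, the inhibitor p27, did not exceed 3.78 CPM in any library. Prdm1, the plasma cell regulator, was at 0.101 to 40.0 CPM over all libraries. Cd69 and Gpr183 had pooled zone differences of 1.89 (SE 1.36) and -1.06 (SE 1.05). Bcl6, the germinal center repressor, differed by -0.38 (SE 0.35) in the pooled comparison.

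**Figure D4:**
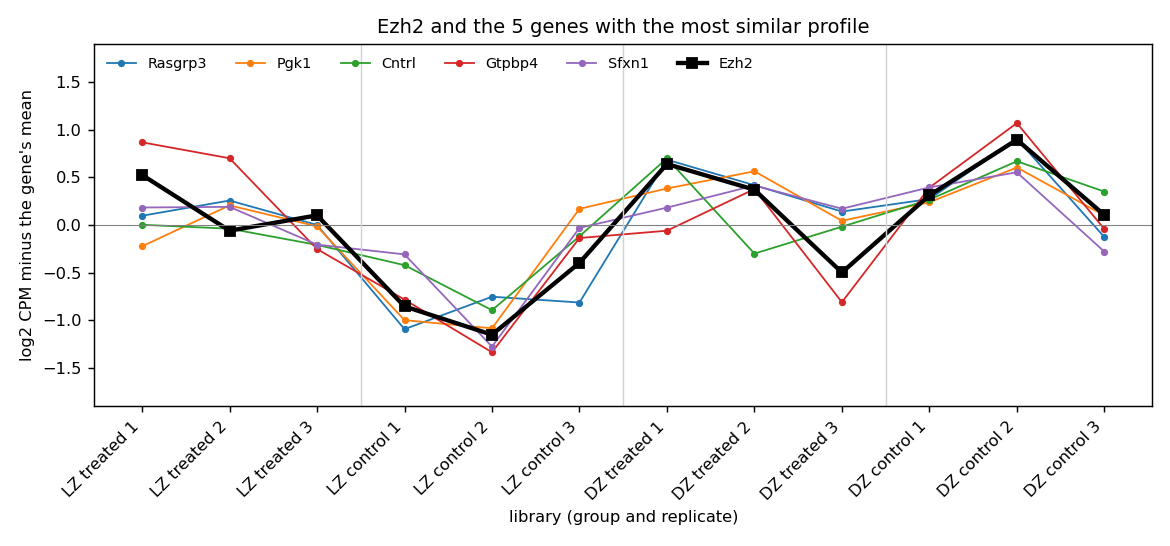
Log2 CPM minus the mean of each gene (vertical axis) for Ezh2 (black) and the 5 genes with the smallest root mean square difference from it, over the 12 libraries grouped by zone and treatment. All 6 genes lie below their own mean in light zone control replicates 1 and 2, with Ezh2 at -0.85 and -1.15.

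The genes whose profile over the 12 libraries lay nearest that of Ezh2 were named by the root mean square difference in log2 CPM after centring each gene. Out of 12080 genes these were Rasgrp3 (0.31), an activator of Ras after antigen receptor signals, the glycolytic enzyme gene Pgk1 (0.35), the centrosomal gene Cntrl (0.35), the ribosome biogenesis gene Gtpbp4 (0.36) and the mitochondrial serine transporter gene Sfxn1 (0.37). Rasgrp3 had 168, 187 and 157 CPM in light zone treated and 73.4, 93.0 and 89.1 CPM in light zone control libraries. It had 252, 209 and 173 CPM in dark zone treated and 189, 293 and 143 CPM in dark zone control libraries. Every light zone control library was below every other library for Rasgrp3. For Ezh2 the exception was dark zone treated replicate 3. No other PRC2 member was near by this measure, which depends on a gene's own spread as well as on the shape of its profile. Rbbp4, the closest, ranked 869 (0.71), followed by Rbbp7 at 2019, Suz12 at 2547, Eed at 3369, Jarid2 at 6902 and Ezh1 at 7051. Mki67 ranked 117 (0.56). A gene at 1 level in all libraries would score close to the SD of Ezh2 itself, 0.62 log2 units. The scores of Ezh1 and Jarid2 also carry their own SD of 1.45 and 1.31. Ranks beyond the nearest genes therefore do not measure how alike the shapes are.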

How the data were processed

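RNA of sorted germinal center B cells was made into libraries with SMART-Seq v4 and Nextera XT per the labels' protocols. The authors deposited 1 table of counts per library; the submitters' processing notes name BWA and mm10, and no label names the counting program. The deposited values are treated as estimated counts, since their fractional part is 0 or 0.5 (11286 of 140561 values were midway), and midway values were rounded up. The 12 libraries held 16032746 to 26837714 counts, and floors cover counting error only. Genes were kept by filterByExpr (minimum count 10, minimum total 15), which left 12081 of 12212, and tested with edgeR 4.0.16 in R 4.3.3 (TMM, quasi-likelihood, 1 term per group). P-values were adjusted over all tested genes by the Benjamini-Hochberg method with a threshold of 0.05. DESeq2 1.42.0, limma 3.58.1 (voom), another normalization, no filter and left-out libraries were alternatives. Scripts were tested on simulated data. Members and gene lists were chosen with earlier results of these data known. Named from each list were up to 4 genes with the largest pooled zone difference at a mean of at least 10 CPM, plus regulators chosen by name, of which Cdkn2a is not analysed here, and the 5 genes nearest Ezh2 in profile. A gene that this rule names is not reported here. Promoter sequences are from RefSeq.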

Additional observations from a re-analysis of the deposited data

How the results depend on the processing

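Of 42 pairs of member and comparison, 21 kept their direction in all 7 other settings and the 12 that left out 1 library, among them Ezh2 between control zones, in the pooled zones, for treatment in the light zone and in the interaction. DESeq2 called 64 genes between pooled zones, 1 between treated zones, 113 between control zones, 72 for treatment in the dark zone, 216 in the light zone and 16 for the interaction, where edgeR called 0, and limma-voom with quality weights called 3073 of 12081 for treatment in the dark zone. The cause was not tested.

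Directions turned round as follows. Without the 3 libraries that stood apart, Ezh2 between treated zones was 0.84, Rbbp4 was 0.44 between pooled zones, 0.75 between treated zones and 0.62 in the interaction, Ezh1 was -1.78 and Rbbp7 0.22 for treatment in the dark zone, and Eed was 0.39 and Suz12 0.29 for treatment in the light zone. With limma-voom, Ezh1 was -0.77 between pooled and -0.58 between treated zones, Ezh2 was 0.15 and Jarid2 0.0774 for treatment in the dark zone, and Eed was 0.0586 for treatment in the light zone. With RLE normalization Jarid2 was -1e-04 between control zones.

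Replicate numbers were not taken as pairing, since same-numbered libraries deviated together (r over 0.1) in 3 of 6 pairs (range -0.307 to 0.539) and 2 dark zone libraries were best matched by their own number. With the replicate block edgeR still called 0 genes. Under the block Ezh2 was -1.24 between control zones, 0.0167 between treated zones, 0.94 for treatment in the light zone and 1.25 in the interaction, while Ezh1 was -0.23, Suz12 -0.0264 and Rbbp4 0.043 between pooled zones and Rbbp7 -0.0244 for treatment in the light zone.

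Leaving out 1 library at a time gave these ranges. Between pooled zones, Ezh1 ran from -0.42 to 0.51, Suz12 from -0.29 to 0.22, Rbbp4 from -0.22 to 0.10 and Jarid2 from -0.33 to 0.63. Between treated zones, Ezh2 ran from -0.30 to 0.20, Rbbp4 from -0.55 to 0.0846 and Jarid2 from -0.67 to 0.44. Between control zones, Ezh1 ran from -1.55 to 0.32, Rbbp4 from -0.18 to 0.32 and Jarid2 from -0.56 to 1.34. For treatment in the dark zone, Ezh2 ran from -0.47 to 0.0349, Ezh1 from -0.35 to 0.86, Rbbp7 from -0.46 to 0.0688 and Jarid2 from -1.04 to 0.70. For treatment in the light zone, Eed ran from -0.36 to 0.38, Suz12 from -0.66 to 0.28 and Rbbp7 from -0.21 to 0.33. In the interaction, Rbbp7 ran from -0.0506 to 0.54 and Jarid2 from -1.42 to 0.48. The permuted zone difference of Ezh2 ran from -0.78 to -0.50. Ezh1 and Jarid2 reached the lowest counts of the members, with as few as 24 in a library, and the cause of their wide spread was not tested.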
